A study of Homo sapiens and Mus musculus with 16 samples.

Results

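The comparison set untreated SK-HEP-1 cells after 4 h against untreated SK-HEP-1 cells after 2 h, to find which mRNAs differed between control cultures that had received only the solvent. SK-HEP-1 is an established human line from an adenocarcinoma of the liver. The untreated libraries, 2U and 4U, came from cells kept in DMEM with 10% FBS and given DMSO at 0.5 mg/ml, the solvent of an ethanol extract of the fruiting body of the fungus Antrodia cinnamomea (AcFBE). The treated libraries, 2T and 4T, came from cells given the same concentration of AcFBE for either time. All 4 cultures shared the line and the medium. The study's methods state that fresh medium with the extract took the place of the old medium. For the DMSO controls the same replacement is assumed here. Each condition had 1 poly(A) RNA library, so no difference below has a replicate check, no p-value was computed, and exposure time, culture and library cannot be told apart. A culture taken at 0 h was not analysed here, so the change from before the start of exposure is unknown.

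Members were genes listed at 1 FPKM or more in 2U or in 4U, where FPKM is the number of fragments scaled by transcript length and library size. Of 22314 genes in the mRNA table, 5982 were members. Of these, 5800 were above 0 in both libraries and have a log2 ratio of 4U over 2U, 117 were listed at 0 in 2U and 65 were listed at 0 in 4U. A gene is called higher when 4U was at least 2-fold above 2U, and lower when it was at least 2-fold below, with no pseudocount. By that rule 1382 genes, or 23.8% of those with a ratio, were higher at 4 h and 603, or 10.4%, were lower. The median log2 ratio over the 5800 genes was 0.19, and the middle 50% of genes lay between -0.46 and 0.95. These shares and this median are the background against which each gene group is read. Just inside the minimum, 193 genes with a higher level of 1 to 1.1 FPKM had a median log2 ratio of 0.56, and just outside it 220 genes at 0.9 to 1 FPKM had a median of 0.62.

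The labelled cell type was checked against marker genes. Of 15 hepatocyte markers, 1 reached 1 FPKM, SERPINA1 (alpha-1 antitrypsin), at 18.7 FPKM in 2U and 13.8 FPKM in 4U, while albumin, HNF4A, the fibrinogen genes and the apolipoprotein genes were listed at 0 in both. Of 10 endothelial markers only ENG reached the minimum, at 22.3 FPKM in 2U and 24.8 FPKM in 4U, with PECAM1, VWF and CDH5 at 0. Of 8 leukocyte markers only CD68 did, at 13.9 FPKM in 2U and 10.1 FPKM in 4U, with PTPRC at 0. Of 10 mesenchymal markers 7 did, led by LGALS1 (galectin-1) at 19567 FPKM in 2U and 22452 FPKM in 4U and VIM (vimentin) at 12525 FPKM in 2U and 6465 FPKM in 4U. Defining hepatocyte markers were thus listed at 0, which in this table is not read as absence, and the mesenchymal markers LGALS1 and VIM were abundant. Of the 7 mesenchymal members, 1 was listed at 0 in 2U and 1 at 0 in 4U. The summed level of the mesenchymal list was 33207 FPKM in 2U and 29854 FPKM in 4U, most of it from LGALS1 and VIM. In bulk RNA, fewer cells of a kind and less of an mRNA per cell cannot be told apart.

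The untreated libraries stood apart from each other and from the treated libraries. Over 4075 genes at 1 FPKM or more in all 4 libraries, 280 were at least 2-fold below the other 3 in 2U and 154 at least 2-fold above, against 89 and 126 in 4U, 17 and 9 in 2T, and 60 and 16 in 4T. Over the same genes, 25.5% differed at least 2-fold between 2U and 4U and 4.98% between 2T and 4T, while 4U and 4T differed most, at 41.8%. The values also differed by time point in form. No gene was listed between 0 and 0.2 FPKM in 4U, whereas 2656 genes were in 2U, of which 81 were members. All 81 were higher at 4 h, as the minimum of 1 FPKM requires, and no gene could differ that way in the other direction. Ratios of low values were compared with ratios of whole numbers up to 4 times a constant, as whole read counts give. Among genes between 0.2 and 1 FPKM, 22.1% of 2T over 2U ratios lay within 0.3% of such a value. The share was 3.66% for 4T over 4U, the pair at 4 h, and 3.46% for 4U over 2U. Of the 117 members at 0 in 2U, 89 were also at 0 in 2T and above 0 in 4T. Genes that every cell uses are among them, such as TPI1 (triose-phosphate isomerase), listed at 0 in 2U and at 5818 FPKM in 4U, so a listing at 0 is not read as absence. The time points and the processing of their files cannot be told apart.

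The ratio varied with expression level and base composition. The median log2 ratio was 1.29 for 657 genes with a geometric mean below 1 FPKM, 0.14 for 1350 genes at 5 to 20 FPKM, -0.02 for 934 genes at 20 to 100 FPKM and -0.10 for 121 genes above 1000 FPKM. With genes split into 5 equal bins of transcript GC content, for the 86.6% of genes with a value, the median was -0.12 in the lowest bin (30.7% to 45.5% GC) and 0.66 in the highest (60.7% to 74.3% GC). In the highest bin 38.5% of genes were higher at 4 h and 5.17% were lower, against 18.8% and 16.7% in the lowest bin. The trend ran the other way in the treated pair. Over 3559 genes at 1 FPKM or more in all 4 libraries and with a GC value, Spearman's rho between ratio and GC content was 0.29 for 4U over 2U, -0.51 for 4T over 2T and -0.71 for 4T over 4U, a description across genes. A GC-centred value below is a log2 ratio less the median of its bin, with the median of all genes added back. By it 1153 of the 5021 genes with a GC value were higher and 446 lower, against 1189 and 506 as measured. GC-centred values are given beside named members and lists that they move most, and the part of base composition in any ratio was not tested further.

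**Figure D1:**
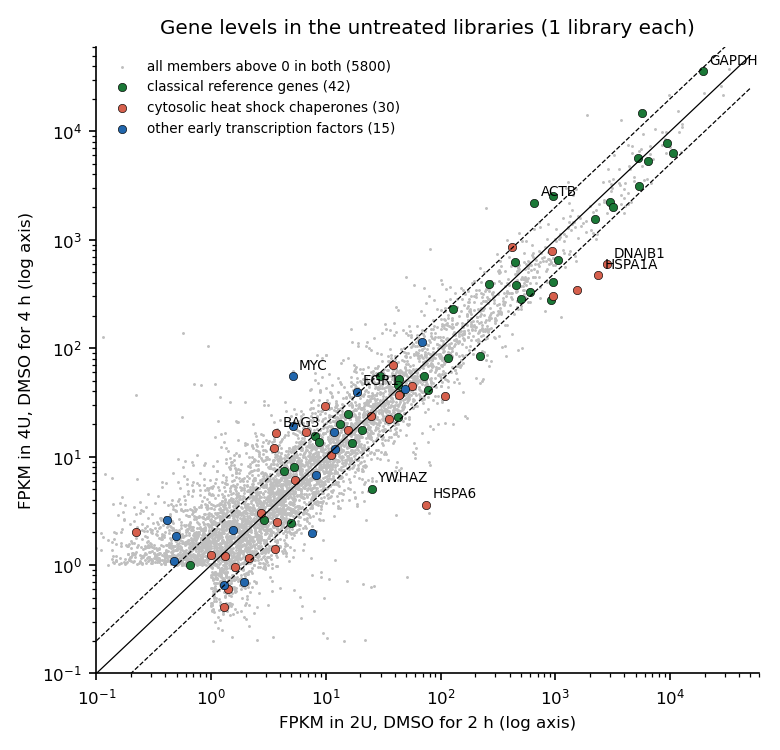
Level in 2U (x axis, FPKM, log scale) against level in 4U (y axis, FPKM, log scale) for the 5800 genes above 0 in both, 1 library each, with 26 genes below 0.1 FPKM in 2U outside the axes. The solid line marks equal levels and the dashed lines 2-fold, and HSPA6, HSPA1A and DNAJB1 lie far below the lower dashed line while MYC, ACTB and BAG3 lie above the upper one.

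Several of the gene groups described here answer to well known switches. Immediate early genes, such as FOS, EGR1 and IER2, are switched on within minutes by serum or growth factors through the serum response factor SRF bound at CArG boxes and through CREB and AP-1 sites, without new protein synthesis, and are shut off again by unstable mRNAs and by induced phosphatases such as DUSP1. Heat shock genes are driven by HSF1, which binds inverted repeats of the letters GAA, and encode chaperones that refold proteins. Unfolded protein in the endoplasmic reticulum drives XBP1, ATF6 and PERK signalling, and PERK and other kinases raise translation of ATF4, the activator of amino acid supply genes. Housekeeping genes, by contrast, are used as references because their levels are taken to be steady.

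The promoters of 6 genes whose levels the results turn on are shown as the 200 bases before the RefSeq transcription start, read 5′ to 3′ on the coding strand, from the RefSeq promoter table (GRCh38.p14). Each was placed by an exact match in the GRCh37 genome. Capitals mark GAANNTTC or TTCNNGAA, the core of the heat shock element, in HSPA6 (chr1:161494130-161494329), HSPA1A (chr6:31783120-31783319) and HSPA1B (chr6:31795315-31795514). In XBP1 (chr22:29196558-29196757, minus strand) they mark the ER stress response element, CCAAT and CCACG with 9 bases between them. In DUSP1 (chr5:172198199-172198398, minus strand) they mark TGACGTCA, the cAMP response element, and in EGR1 (chr5:137800968-137801167) CArG boxes.
HSPA6: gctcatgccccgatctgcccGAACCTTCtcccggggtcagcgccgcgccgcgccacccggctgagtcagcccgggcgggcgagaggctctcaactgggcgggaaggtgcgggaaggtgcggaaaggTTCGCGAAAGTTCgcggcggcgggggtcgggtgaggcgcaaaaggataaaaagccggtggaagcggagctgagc
HSPA1A: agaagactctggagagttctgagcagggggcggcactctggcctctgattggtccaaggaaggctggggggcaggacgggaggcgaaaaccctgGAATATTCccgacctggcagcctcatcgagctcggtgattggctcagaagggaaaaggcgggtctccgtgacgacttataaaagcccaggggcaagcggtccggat
HSPA1B: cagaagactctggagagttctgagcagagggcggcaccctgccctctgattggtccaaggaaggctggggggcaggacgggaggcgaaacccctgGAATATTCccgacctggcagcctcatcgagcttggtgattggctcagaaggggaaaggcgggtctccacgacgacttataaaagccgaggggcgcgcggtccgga
XBP1: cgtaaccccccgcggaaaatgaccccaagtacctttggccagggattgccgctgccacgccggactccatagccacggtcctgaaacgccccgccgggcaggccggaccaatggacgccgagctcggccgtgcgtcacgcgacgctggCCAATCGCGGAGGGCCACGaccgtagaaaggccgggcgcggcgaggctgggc
DUSP1: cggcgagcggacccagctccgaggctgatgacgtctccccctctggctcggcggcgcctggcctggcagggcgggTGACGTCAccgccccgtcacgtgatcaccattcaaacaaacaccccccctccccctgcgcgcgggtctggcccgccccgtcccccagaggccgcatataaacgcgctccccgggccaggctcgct
EGR1: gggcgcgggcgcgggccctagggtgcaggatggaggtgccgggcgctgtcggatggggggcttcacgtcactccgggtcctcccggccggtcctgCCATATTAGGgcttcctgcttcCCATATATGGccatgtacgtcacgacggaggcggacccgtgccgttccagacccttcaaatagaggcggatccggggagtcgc

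HSPA6 carried 3 heat shock matches, starting 180, 74 and 69 bases before the start, of which the last 2 overlap. HSPA1A and HSPA1B carried 1 each, and their windows were the same at 188 of 199 aligned bases. EGR1 carried 2 CArG boxes, starting 105 and 83 bases before the start. Over 27305 RefSeq promoters, searched on both strands in the 250 bases before the start, a heat shock match was found in 11.7%, the cAMP response element in 1.77%, a CArG box in 1.14% and the ER stress response element in 0.0806%. DNAJB1, HSP90AA1 and HSP90AB1 had no heat shock match in that window and HSPA8 had 4. These are matches of letters in a window, and binding was not measured.

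Among early response genes, more members were higher at 4 h than were lower. Of 86 early response members, 85 had a ratio, 32 were higher at 4 h (37.6%, against 23.8% of all genes) and 9 were lower (10.6%, against 10.4%), with a median log2 ratio of 0.45 beside 0.19 over all genes. Of these 32, 13 began below 1 FPKM in 2U, as did 652 of all 1382 higher genes, so they entered only through the library in which they were high. Under median centring 27 were higher and 13 lower, and GC-centred 26 and 14 of 83. Over all genes the counts were 1124 and 819 of 5800 under median centring, and 1153 and 446 of 5021 GC-centred. In the part of the list that makes up AP-1, the dimeric factor of the FOS, JUN and ATF families, 2 of 9 members were higher and none was lower, with a median of -0.34. ATF3, the stress-inducible member at chr1:212738676-212794119, was 2.6997 FPKM in 2U and 16.03 FPKM in 4U, a 5.94-fold higher level. JUNB was 1.37 FPKM in 2U and 2.79 FPKM in 4U and sat at the 2-fold limit with a log2 ratio of 1.02, which was within 2-fold under all 4 scalings and at a GC-centred 0.55.

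The classical serum-induced members of AP-1 were already present at 2 h and differed by less than 2-fold. FOS was 29.4 FPKM in 2U and 43.3 FPKM in 4U, FOSB was 1.71 FPKM in 2U and 1.29 FPKM in 4U and JUN was 13.4 FPKM in 2U and 20.2 FPKM in 4U. JUND, a member expressed in resting cells, was 16.9 FPKM in 2U and 11.4 FPKM in 4U. FOSL1 (FRA-1) was the most abundant AP-1 mRNA in both libraries and was nearly 2-fold lower at 4 h, at 2134 FPKM in 2U and 1149 FPKM in 4U. FOSL2 and BATF3 were also lower by less than 2-fold, with log2 ratios of -0.34 and -0.41. In every case but JUNB both untreated libraries lay above both treated libraries, where FOS was listed at 0.193 FPKM in 2T and 1.09 FPKM in 4T and FOSL1 at 532 and 324 FPKM. GC-centred, FOSL1 and JUND were each at least 2-fold lower, both at -1.04, and FOSL1 also under median centring, at -1.08.

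Among other early transcription factors, 27 were listed and 15 were members with a ratio, of which 6 were higher and 2 lower, with a median log2 ratio of 0.52. MYC, the growth-promoting factor, had the largest difference, at 5.14 FPKM in 2U and 54.96 FPKM in 4U, 10.7-fold, and it lay between those levels in the treated cells, at 15.3 FPKM in 2T and 11.6 FPKM in 4T. EGR1 (chr5:137801168-137804992), whose CArG boxes are shown above, was 18.6 FPKM in 2U and 39.8 FPKM in 4U, 2.14-fold higher. ID3, an inhibitor of basic helix-loop-helix factors, was 5.14 FPKM in 2U and 18.9 FPKM in 4U. KLF2, MAFF and EGR4 were also higher, from levels under 1 FPKM, with KLF2 at 0.413 FPKM in 2U and 2.63 FPKM in 4U and MAFF at 0.499 FPKM in 2U and 1.83 FPKM in 4U. The list's GC-centred median was 0.29, EGR4 was within 2-fold at a GC-centred 0.73, and EGR1 was within 2-fold under median centring, at 0.91.

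The list also held lower members. RCAN1, a calcineurin inhibitor kept in this list as an early responder, was 7.62 FPKM in 2U and 1.98 FPKM in 4U and KLF6 was 1.95 FPKM in 2U and 0.693 FPKM in 4U. SNAI2 (SLUG) was 1.29 FPKM in 2U and 0.647 FPKM in 4U, just within 2-fold as measured and past it under all 4 scalings. IER2 and IER5, immediate early genes of the same family, were 1.65-fold and 1.43-fold higher, at 69.5 FPKM in 2U and 114 FPKM in 4U and 11.7 FPKM in 2U and 16.8 FPKM in 4U. SRF itself differed little, at 12.03 FPKM in 2U and 11.8 FPKM in 4U, as did ID1, ID2 and CSRNP1, whose log2 ratios were -0.21, -0.29 and 0.44.

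**Figure D2:**
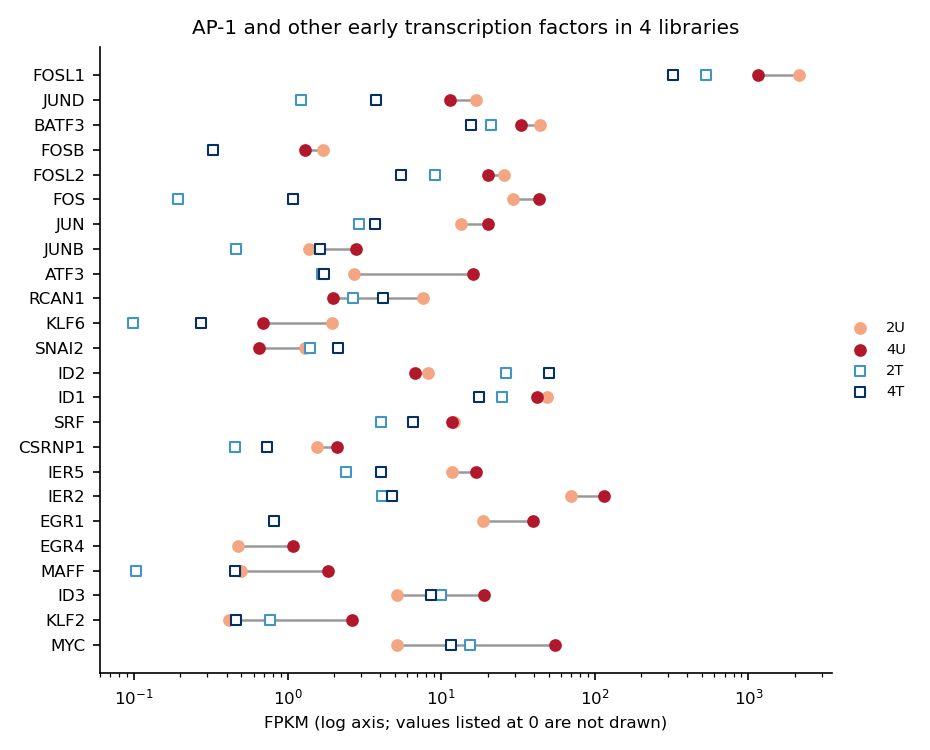
Level (x axis, FPKM, log scale) of each AP-1 and other early transcription factor with a ratio, with 2U and 4U as filled circles joined by a line and 2T and 4T as open squares, 1 library each. MYC, KLF2 and ATF3 show the longest lines to the right, RCAN1 the longest to the left, and FOSL1 is the most abundant.

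Feedback regulators, which shut early signalling off, were split. Of 23 with a ratio, 10 were higher (43.5%, against 23.8% of all genes) and 5 were lower (21.7%, against 10.4%). The median was 0.12, a sign that turns under median centring of the libraries. The dual-specificity phosphatases differed among themselves, with DUSP14 2.01-fold higher, though within 2-fold under all 4 scalings, DUSP6 within 2-fold and DUSP1 and DUSP5 lower. DUSP1 (chr5:172195099-172198198), which inactivates JNK, p38 and ERK, was 227 FPKM in 2U and 79.1 FPKM in 4U, 2.87-fold lower, and DUSP5, a nuclear ERK phosphatase, was 21.8 FPKM in 2U and 5.84 FPKM in 4U. BTG3, an antiproliferative factor, was 16.4 FPKM in 2U and 5.004 FPKM in 4U and ARC, an early gene best known in neurons, was 5.12 FPKM in 2U and 1.78 FPKM in 4U. IER3, an early gene tied to survival, went the other way at 111 FPKM in 2U and 354 FPKM in 4U, and PIM1, a kinase, was 2.41 FPKM in 2U and 6.404 FPKM in 4U. NFKBIA, the inhibitor of NF-kB, was within 2-fold at 18.4 FPKM in 2U and 20.05 FPKM in 4U. The GC-centred median was 0.35.

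Secreted and surface early genes numbered 15 with a ratio, of which 5 were higher and none lower, with a median of -0.22. CYR61 (CCN1), a matricellular protein and target of SRF and YAP, was 67.8 FPKM in 2U and 219 FPKM in 4U, 3.23-fold higher. Its relative CTGF was 58.5 FPKM in 2U and 88.6 FPKM in 4U. The other 4 higher members, LIF, CXCL1, CXCL2 and F3, all began below 1 FPKM, as CXCL1 at 0.414 FPKM in 2U and 2.24 FPKM in 4U, in the range where most genes were listed higher at 4 h. HBEGF was 7.17 FPKM in 2U and 3.77 FPKM in 4U, GDF15 96.4 FPKM in 2U and 65.2 FPKM in 4U and PLAUR 33.9 FPKM in 2U and 24.01 FPKM in 4U, all lower by less than 2-fold. The median of the 13 members with a GC value was -0.33 and GC-centred -0.17. GDF15 was past 2-fold at a GC-centred -1.03, and HBEGF under median centring, at -1.12.

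Targets of SRF in the actin cytoskeleton had the highest median of the early lists, 0.56. Of 23 members, 9 were higher (39.1%, against 23.8% of all genes) and 2 lower (8.70%, against 10.4%). ACTG2 (smooth muscle gamma actin) was 2.91 FPKM in 2U and 32.7 FPKM in 4U, TAGLN2 (transgelin 2) 251 FPKM in 2U and 1962 FPKM in 4U, FLNC (filamin C) 1.95 FPKM in 2U and 12.7 FPKM in 4U, ACTN1 (alpha-actinin 1) 1.34 FPKM in 2U and 5.61 FPKM in 4U and AMOTL2 2.42 FPKM in 2U and 6.02 FPKM in 4U. PDLIM7, an actin-associated scaffold, was lower at 28.04 FPKM in 2U and 9.69 FPKM in 4U. For 7 of the 9 higher members both treated libraries lay nearer 4U than 2U, as for TAGLN2 at 2275 FPKM in 2T and 1968 FPKM in 4T, so that 2U was the low library of the 4. TPM1 (tropomyosin 1) was listed at 0 in 2U and 2T. Reads of ACTG2 may be shared with the near-identical actin genes, and its level is uncertain. GC-centred, AMOTL2 was within 2-fold at 0.84. AJUBA, another member, is listed in the table under its older symbol JUB and was not matched; with it, at 1.72 FPKM in 2U and 21.04 FPKM in 4U, 10 of 24 were higher.

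Stress genes differed in both directions in nearly equal numbers as measured. Of 156 stress members, 154 had a ratio, 28 were higher (18.2%, against 23.8% of all genes) and 29 were lower (18.8%, against 10.4%), and the median was -0.10. Under median centring 26 were higher and 34 lower, beside 1124 and 819 of all 5800 genes. GC-centred 28 were higher and 24 lower of 148, beside 1153 and 446 of all 5021 genes with a GC value. Among the cytosolic heat shock chaperones 9 of 30 were lower (30%), 6 were higher (20%) and 15 were within 2-fold, with a median of -0.25. CRYAB, a small heat shock protein, was listed at 1.35 FPKM in 2U and at 0 in 4U.

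The inducible HSP70 and HSP40 genes were lower at 4 h than at 2 h. HSPA6 (chr1:161494330-161496684), the strictly inducible HSP70 with 3 heat shock matches in its promoter window, was 75.3 FPKM in 2U and 3.602 FPKM in 4U, 20.9-fold lower. HSPA1A (chr6:31783320-31785723) was 2347 FPKM in 2U and 473 FPKM in 4U and its near-identical neighbour HSPA1B (chr6:31795515-31798031) was 1539 FPKM in 2U and 343 FPKM in 4U, 4.96-fold and 4.48-fold lower. How the counting shared reads between these copies, and between HSPA6 and its copy HSPA7, is not given in the sources used here, so the single values are uncertain. DNAJB1 (chr19:14625581-14671203), the HSP40 partner of HSP70, was 2820.1 FPKM in 2U and 596 FPKM in 4U, 4.74-fold lower.

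Both untreated libraries lay above both treated libraries for these 4 genes. HSPA6 was listed at 0.196 FPKM in 2T and 0.2802 FPKM in 4T, HSPA1A at 21.1 and 11.9 FPKM, and DNAJB1 at 72.6 and 84.6 FPKM. The 2 h control was thus the highest of the 4 libraries, and the 4 h control still lay above the treated cells. The log2 ratio of 4T over 2T was -0.83 for HSPA1A, -0.58 for HSPA1B and 0.22 for DNAJB1, each within 2-fold.

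HSP90 genes were also lower, with HSP90AA1, the inducible form, at 109 FPKM in 2U and 36.05 FPKM in 4U and HSP90AB1, the constitutive form, at 958 FPKM in 2U and 305 FPKM in 4U. The treated libraries held HSP90AA1 at 141 FPKM in 2T and 111 FPKM in 4T, so that 4U was the low library. They held HSP90AB1 between the untreated levels, at 610.2 and 632 FPKM. HSPA1L, DNAJB4 and BAG1, each below 4 FPKM, completed the lower members. Other members of the same list were higher at 4 h. HSPA8, the constitutive HSP70, was 416 FPKM in 2U and 855 FPKM in 4U, BAG3, a co-chaperone of selective autophagy that HSF1 induces, was 3.68 FPKM in 2U and 16.5 FPKM in 4U, STIP1 (HOP), which links HSP70 to HSP90, was 6.66 FPKM in 2U and 17.005 FPKM in 4U, and CDC37, the kinase co-chaperone, was 3.53 FPKM in 2U and 11.9 FPKM in 4U. HSF1 mRNA was 9.84 FPKM in 2U and 29.1 FPKM in 4U, and BAG2 was 0.2201 FPKM in 2U and 2.03 FPKM in 4U. HSPB1 (HSP27) was within 2-fold at 938 FPKM in 2U and 788 FPKM in 4U. The summed level of the list was 9477 FPKM in 2U and 3721 FPKM in 4U, a difference that lay mostly in HSPA1A, HSPA1B and DNAJB1. HSPA1L was within 2-fold at a GC-centred -0.90, and HSPA8 was within 2-fold under all 4 scalings.

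**Figure D3:**
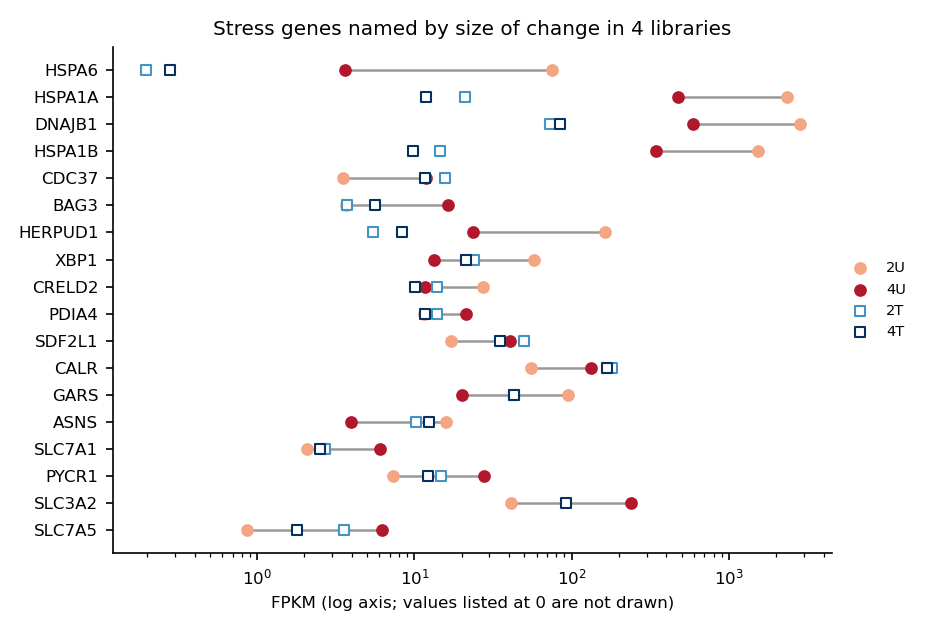
Level (x axis, FPKM, log scale) of the named members of the heat shock, endoplasmic reticulum and ATF4 lists, with 2U and 4U as filled circles joined by a line and 2T and 4T as open squares, 1 library each. For HSPA6, HSPA1A, HSPA1B and DNAJB1 the 2U circle lies rightmost and both squares lie far to the left of the circles, while XBP1, GARS and ASNS have the squares between the circles.

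Mitochondrial chaperones and proteases had a median of 0.51, with 4 of 15 higher (26.7%, against 23.8% of all genes) and 1 lower (6.67%, against 10.4%). CLPP, the matrix protease, was 74.6 FPKM in 2U and 263 FPKM in 4U, HTRA2, an intermembrane-space protease, 6.22 FPKM in 2U and 16.1 FPKM in 4U, DNAJA3, the mitochondrial HSP40, 0.615 FPKM in 2U and 5.57 FPKM in 4U and PHB (prohibitin) 240.1 FPKM in 2U and 509 FPKM in 4U. HSPD1 and HSPE1, the HSP60 and HSP10 chaperonin pair, were within 2-fold at 11.2 FPKM in 2U and 15.9 FPKM in 4U and 32.7 FPKM in 2U and 22.1 FPKM in 4U. YME1L1, an inner-membrane protease, was the lower member, with 1.61 FPKM in 2U and 0.608 FPKM in 4U. PHB was within 2-fold under median centring, at 0.90. For the 14 members with a GC value the median was 0.39 and the GC-centred median 0.27.

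Genes of the endoplasmic reticulum had a median of -0.06, and 3 of 21 were higher and 4 lower. HERPUD1 (chr16:56966054-56978776), which serves degradation of misfolded ER proteins, was 164 FPKM in 2U and 23.6 FPKM in 4U, 6.94-fold lower, and it lay at 5.48 and 8.32 FPKM in 2T and 4T. XBP1 (chr22:29190543-29196585), the factor whose ER stress response element is shown above, was 58.1 FPKM in 2U and 13.4 FPKM in 4U, 4.34-fold lower. CRELD2, a secreted ER stress marker, was 27.5 FPKM in 2U and 11.6 FPKM in 4U, and ATF6 was the fourth lower member. CALR (calreticulin) and SDF2L1 went the other way, at 54.9 FPKM in 2U and 133 FPKM in 4U and 17.2 FPKM in 2U and 40.8 FPKM in 4U, and PDIA4 was 11.5 FPKM in 2U and 21.2 FPKM in 4U. HSPA5 (BiP), the central ER chaperone, was within 2-fold at 40.9 FPKM in 2U and 47.2 FPKM in 4U, as was HSP90B1 (GRP94) at 19.1 FPKM in 2U and 11.5 FPKM in 4U. The list's median turned to 0.18 when GC-centred, with 2 higher and 3 lower, and SDF2L1 at 0.78 and ATF6 at -0.94 were then within 2-fold.

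In the ATF4 and amino acid list 5 of 25 were higher and 5 lower, with a median of -0.09, and ATF4 itself was 535 FPKM in 2U and 431 FPKM in 4U. Among the lower members ASNS (asparagine synthetase) was 15.9 FPKM in 2U and 3.97 FPKM in 4U, GARS (glycyl-tRNA synthetase) 95.2 FPKM in 2U and 20.2 FPKM in 4U and DDIT3 (CHOP) 116 FPKM in 2U and 50.2 FPKM in 4U. SESN2 and CEBPG were the other lower members. Among the higher members SLC7A5 and SLC3A2, which pair as the LAT1 transporter of large neutral amino acids, were 0.862 FPKM in 2U and 6.18 FPKM in 4U and 41.2 FPKM in 2U and 238 FPKM in 4U, and SLC7A1, a transporter of cationic amino acids, was 2.07 FPKM in 2U and 6.003 FPKM in 4U. PYCR1, of proline synthesis, was 7.27 FPKM in 2U and 27.6 FPKM in 4U. ATF5 was higher from 0.0616 FPKM in 2U, a level that 4U does not list for any gene. The GC-centred median was -0.23, with DDIT3 within 2-fold at -0.90.

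Most antioxidant targets of NRF2 were within 2-fold, with a median of -0.15. Of 27, 3 were higher (11.1%, against 23.8% of all genes) and 2 lower (7.41%, against 10.4%). FTL (chr19:49468566-49470136), the ferritin light chain, differed most, at 1883 FPKM in 2U and 14208 FPKM in 4U, 7.54-fold higher, and its levels of 18098 FPKM in 2T and 19004 FPKM in 4T made 2U the low library. FTH1, the heavy chain that assembles with it, was 709 FPKM in 2U and 597 FPKM in 4U. TKT (transketolase) was 17.6 FPKM in 2U and 61.5 FPKM in 4U and SQSTM1 (p62), an autophagy receptor, was lower at 379 FPKM in 2U and 163 FPKM in 4U. HMOX1, the haem oxygenase that NRF2 strongly induces, was 5.42 FPKM in 2U and 5.24 FPKM in 4U. PRDX6, GPX4 and KEAP1 were within 2-fold, with log2 ratios of 0.86, 0.79 and 0.92. PRDX6 was past 2-fold at a GC-centred 1.17.

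Metallothioneins, small proteins that bind zinc and copper, had 1 of 11 higher, 1 lower and a median of 0.09, which turns sign under median centring. MT2A (chr16:56642496-56643409), the most abundant, was 3750.0 FPKM in 2U and 12839 FPKM in 4U, 3.42-fold higher, while MT1E was 962 FPKM in 2U and 680.4 FPKM in 4U and MT1M 25.97 FPKM in 2U and 16.4 FPKM in 4U. MT1A was 8.96 FPKM in 2U and 17.7 FPKM in 4U, just within 2-fold, and MT1L was 21.1 FPKM in 2U and 28.3 FPKM in 4U. SLC30A1, the zinc exporter in the same list, was lower at 6.49 FPKM in 2U and 2.64 FPKM in 4U. The MT1 genes are close copies in 1 cluster, and how their reads were shared is uncertain. The GC-centred median was -0.04, with MT1A past 2-fold at 1.30 and SLC30A1 within 2-fold at -0.99.

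Targets of p53 had 4 of 13 higher (30.8%, against 23.8% of all genes), 3 lower (23.1%, against 10.4%) and a median of 0.04. That was below the 0.19 of all genes as measured. Under all 4 scalings, which shift the list and all genes alike, the list's median was below 0. CDKN1A (p21), the arrest gene, was 193 FPKM in 2U and 89.1 FPKM in 4U, GADD45B 47.04 FPKM in 2U and 21.2 FPKM in 4U and CCNG1 8.99 FPKM in 2U and 3.81 FPKM in 4U, all lower. TP53I3, FDXR and PHLDA3 were higher, at 6.27 FPKM in 2U and 24.9 FPKM in 4U, 2.58 FPKM in 2U and 9.07 FPKM in 4U and 17.4 FPKM in 2U and 46.9 FPKM in 4U. Hypoxia targets had the lowest median of the stress lists, -0.47. Of 12, 4 were lower (33.3%, against 10.4% of all genes) and 2 higher (16.7%, against 23.8%). LOX (lysyl oxidase) was 12.7 FPKM in 2U and 3.503 FPKM in 4U and JMJD6 15.9 FPKM in 2U and 6.26 FPKM in 4U, while ADM (adrenomedullin) was 13.3 FPKM in 2U and 48.7 FPKM in 4U. BNIP3, SLC2A1 (GLUT1) and P4HA2 were within 2-fold, with log2 ratios of -0.34, 0.26 and -0.59. The GC-centred median of the p53 list was 0.09, and PHLDA3 at 0.96 and CCNG1 at -0.93 were then within 2-fold.

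**Figure D4:**
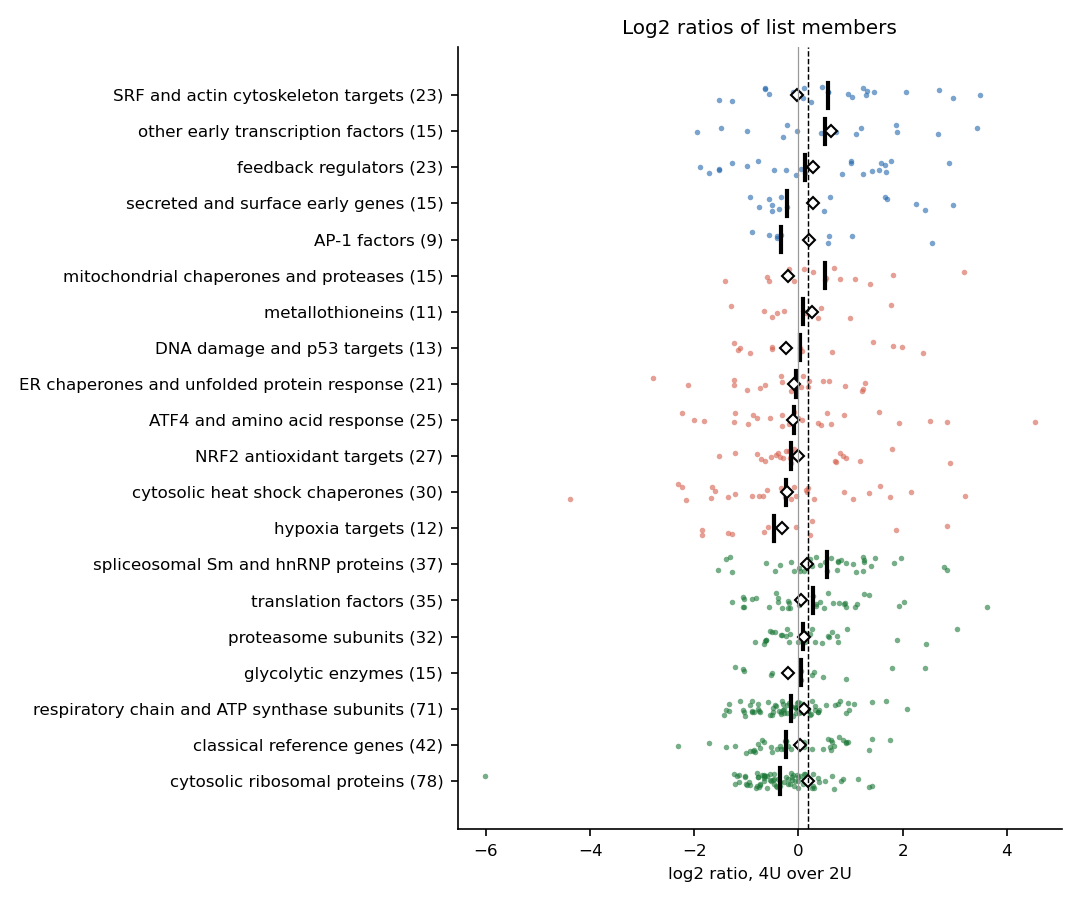
Log2 ratio of 4U over 2U (x axis) for each member with a ratio, by list, with the number of such members in brackets and points spread vertically for clarity. Bars mark the list's median, open diamonds the list's median for 4T over 2T over the members with that ratio, the dashed line the median of all 5800 genes (0.19) and the grey line 0, and colours separate early response (blue), stress (red) and housekeeping (green) lists.

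Housekeeping genes were higher and lower in equal numbers as measured, a balance that changed most under median centring and GC centring. Of 306 members, 301 had a ratio, and 33 were higher (11%, against 23.8% of all genes) and 33 lower (11%, against 10.4%), with a median of -0.10. Most are abundant, and the share of all genes past 2-fold was smaller at high levels, with 7.35% higher and 9.39% lower among the 490 genes at 100 to 1000 FPKM. For the 276 genes with a GC value, genes marked HKG in the table apart, 33 higher and 27 lower became 44 and 12 when GC-centred, and under median centring 27 of 293 were higher and 46 lower.

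Of 42 classical reference genes, 3 were at least 2-fold higher, 5 at least 2-fold lower and 34 within 2-fold, with a median of -0.23. ACTB (chr7:5566040-5603533), beta-actin, was 653 FPKM in 2U and 2198 FPKM in 4U, 3.36-fold higher, and ACTG1, gamma-actin, was 962 FPKM in 2U and 2551 FPKM in 4U. RPLP0, a ribosomal stalk protein, was 5724 FPKM in 2U and 14633 FPKM in 4U and HPRT1, of purine salvage, was 8.04 FPKM in 2U and 15.6 FPKM in 4U. At the other end YWHAZ (14-3-3 zeta) was 24.99 FPKM in 2U and 5.06 FPKM in 4U, ATP5F1 220.1 FPKM in 2U and 83.9 FPKM in 4U and LDHA 957 FPKM in 2U and 409 FPKM in 4U. TFRC, the transferrin receptor, was also lower. GAPDH, the reference most used, was 19176 FPKM in 2U and 36197 FPKM in 4U, 1.89-fold higher. GC-centred, the median was 0.01 over 40 members, with 5 higher and 3 lower. That was nearer to the all-gene median of 0.19 that is added back, but still below it. LDHA at -0.92 and TFRC at -0.71 were then within 2-fold and HPRT1 was past it at 1.26.

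The log2 ratio ranged from -2.31 for YWHAZ to 1.75 for ACTB. Of 41 reference genes with a ratio in both time pairs, 6 were within 1.2-fold in the untreated pair, among them VCP at 42.8 FPKM in 2U and 45.8 FPKM in 4U and UBB at 5243 FPKM in 2U and 5631 FPKM in 4U. The median absolute log2 ratio of these 41 was 0.68 for 4U over 2U and 0.17 for 4T over 2T, beside 0.69 and 0.36 over all genes with a ratio in each pair. For 35 of the 41 it was larger in the untreated pair. ACTB was 2305 FPKM in 2T and 1827 FPKM in 4T, so 2U was the low library, whereas YWHAZ was 14.2 and 22.4 FPKM, so 4U was.

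**Figure D5:**
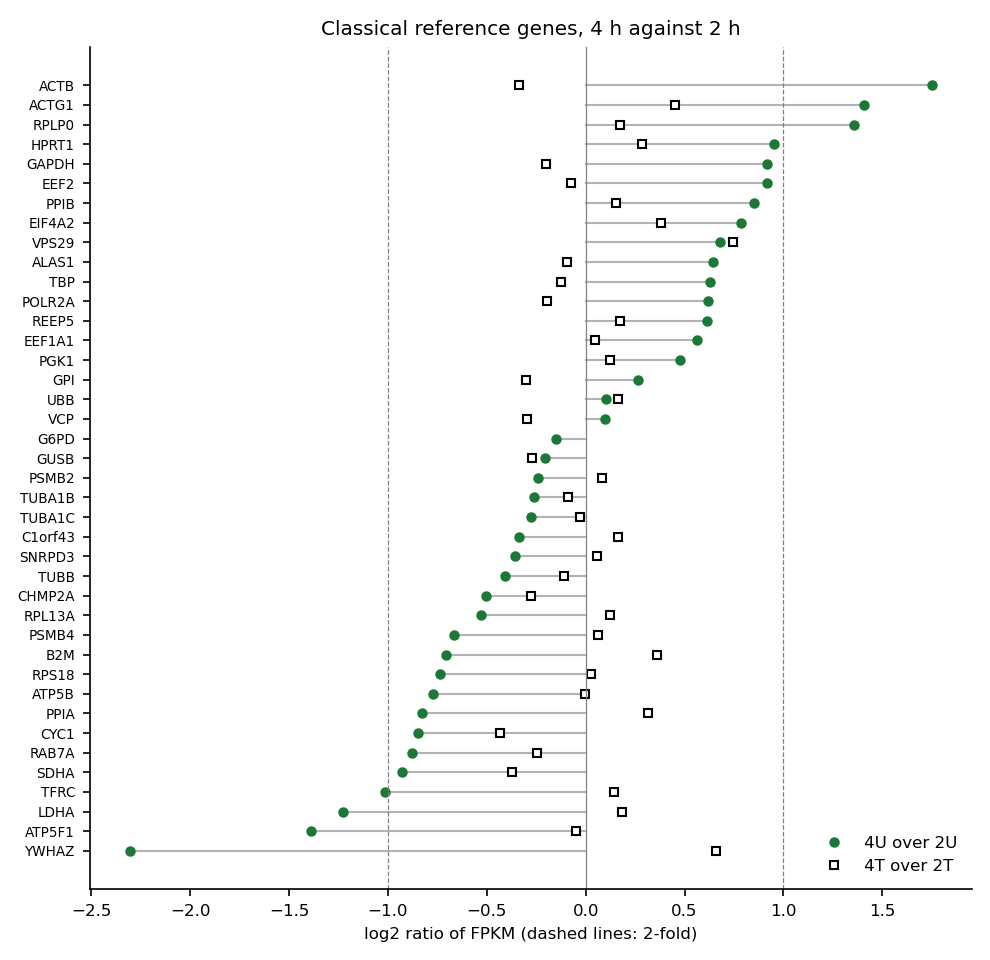
Log2 ratio at 4 h against 2 h (x axis) of 40 of the 42 classical reference genes with a ratio, sorted by the untreated pair, for 4U over 2U (green circles) and 4T over 2T (open squares), 1 library each. The circles run from -2.31 (YWHAZ) to 1.75 (ACTB), the dashed lines mark 2-fold and all the squares lie within them.

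Cytosolic ribosomal proteins had a median of -0.35, with 3 of 78 higher (3.85%, against 23.8% of all genes) and 9 lower (11.5%, against 10.4%). RPL15 and RPLP0 were the highest in ratio, with RPL15 at 375 FPKM in 2U and 994 FPKM in 4U. RPS3A was 981 FPKM in 2U and 417 FPKM in 4U. RPL21 (chr13:27825499-27830828) was 50.4 FPKM in 2U and 0.782 FPKM in 4U, 64.5-fold lower, but 0.372 FPKM in 2T and 144 FPKM in 4T. RPL21 has many processed pseudogenes, as do most ribosomal protein genes, so its assignment is uncertain. FAU and RPL10 were listed at 0 in 2U and 2T, and their levels in 4U were 3258 and 1484 FPKM. The summed level of the list barely differed, at 326693 FPKM in 2U and 324649 FPKM in 4U. The GC-centred median was -0.20, and 1 of the 78 was then lower, with RPS3A within 2-fold at -0.93.

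Proteasome subunits had 3 of 32 higher (9.38%, against 23.8% of all genes) and none lower (against 10.4%). Their median was 0.08, which turns sign under median centring. PSMD3 and PSMD12, lid subunits of the 19S cap, were 14.2 FPKM in 2U and 77.3 FPKM in 4U and 0.137 FPKM in 2U and 1.13 FPKM in 4U. PSMD2 and PSMB4 had the lowest ratios, at 259 FPKM in 2U and 145 FPKM in 4U and 3209 FPKM in 2U and 2022 FPKM in 4U. Respiratory chain and ATP synthase subunits had a median of -0.14, with 4 of 71 higher and 8 lower. Complex I subunits lay at both ends, with NDUFB7 at 101 FPKM in 2U and 426 FPKM in 4U and NDUFS7 at 87.1 FPKM in 2U and 279 FPKM in 4U against NDUFC1 at 5.44 FPKM in 2U and 2.02 FPKM in 4U. ATP5F1, described with the reference genes, had the other of the 2 lowest ratios. NDUFB11 and NDUFS3 were listed at 0 in both 2 h libraries. GC-centred, the proteasome list had a median of 0.36, with 5 higher and 1 lower, and the respiratory chain list had 9 of 56 higher and 4 lower, against 4 and 4 of the same genes as measured. PSMD2 was past 2-fold under median centring, at -1.03.

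Glycolytic enzymes had 2 of 15 higher, 3 lower and a median of 0.04, which is below 0 under all 4 scalings. ENO2 (gamma-enolase) was 10.6 FPKM in 2U and 57.6 FPKM in 4U and PFKL, the liver phosphofructokinase, was 6.04 FPKM in 2U and 20.96 FPKM in 4U. LDHA, given above, and LDHB, at 1470.0 FPKM in 2U and 701 FPKM in 4U, the subunits of lactate dehydrogenase, were both lower, with PKM2. ENO1, the abundant enolase, was 12609 FPKM in 2U and 10996 FPKM in 4U. Translation factors had 7 of 35 higher (20%, against 23.8% of all genes), 5 lower (14.3%, against 10.4%) and a median of 0.27. EIF3J and PABPC1, the poly(A)-binding protein, were 0.257 FPKM in 2U and 3.17 FPKM in 4U and 36.1 FPKM in 2U and 147 FPKM in 4U, while EIF3H and EIF4G2 were 297 FPKM in 2U and 123 FPKM in 4U and 109 FPKM in 2U and 51.97 FPKM in 4U. The GC-centred median of the glycolytic list was 0.10. GC-centred, LDHB at -0.76, EIF3H at -0.95 and EIF4G2 at -0.75 were within 2-fold, and translation factors had 8 higher and 1 lower of 35.

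Spliceosomal Sm and hnRNP proteins, together with SR proteins, had the highest median of the housekeeping lists, 0.55. Of 37, 12 were higher (32.4%, against 23.8% of all genes) and 4 lower (10.8%, against 10.4%). The GC-centred median was 0.76, over transcripts with a median of 45.7% GC. HNRNPU and HNRNPL were 0.16 FPKM in 2U and 1.16 FPKM in 4U and 0.299 FPKM in 2U and 2.08 FPKM in 4U, both from levels below 1 FPKM. HNRNPA2B1 was 2.35 FPKM in 2U and 9.22 FPKM in 4U and SNRPB, a core Sm protein, 486 FPKM in 2U and 1147 FPKM in 4U. HNRNPC was lower at 251 FPKM in 2U and 85.6 FPKM in 4U, and SRSF9 was 2.96 FPKM in 2U and 1.13 FPKM in 4U. For 9 of the 11 higher members above 0 in all 4 libraries, both treated libraries lay nearer 4U than 2U.

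Genes that the deposited table itself marks HKG numbered 11, and this list was added after the file was seen. Of these, ACTG1 was higher, CD81 and LDHB were lower, and the median was -0.57. CD81, a tetraspanin, was 818 FPKM in 2U and 221 FPKM in 4U.

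Over all genes at 1 FPKM or more in both libraries and 5 FPKM or more in 1, the 10 largest differences in each direction were taken. The largest higher was MGAT4B (chr5:179224597-179233952), a Golgi N-glycan branching enzyme, at 1.08 FPKM in 2U and 46.7 FPKM in 4U, 43.2-fold. RNASEH2C, a subunit of ribonuclease H2, was 1.19 FPKM in 2U and 35.8 FPKM in 4U, PIGT, of the GPI-anchor transamidase, 1.46 FPKM in 2U and 31.7 FPKM in 4U, SPNS1, a lysosomal transporter, 1.15 FPKM in 2U and 21.5 FPKM in 4U and MAZ, a zinc finger factor, 1.98 FPKM in 2U and 32.2 FPKM in 4U. The rest included BCAR1, KIFC3, COPS7A and JUB, between 12.3-fold and 13.8-fold. All 10 were below 2 FPKM in 2U.

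The largest lower was TAF10 (chr11:6627524-6633770), a subunit of TFIID and SAGA, at 78.5 FPKM in 2U and 3.003 FPKM in 4U, 26.2-fold. HSPA6, its copy HSPA7, at 41.2 FPKM in 2U and 2.87 FPKM in 4U, and HERPUD1 were 3 of the 10. DEAF1 was 12.01 FPKM in 2U and 1.11 FPKM in 4U, the readthrough gene RBM14-RBM4 80.4 FPKM in 2U and 8.44 FPKM in 4U, C17orf89 79.1 FPKM in 2U and 8.96 FPKM in 4U, ZNF580 22.3 FPKM in 2U and 2.63 FPKM in 4U, C17orf79 169 FPKM in 2U and 22.7 FPKM in 4U and GNL3 (nucleostemin) 42.2 FPKM in 2U and 6.07 FPKM in 4U. For 7 of the 9 largest higher and 8 of the 9 largest lower genes above 0 in all 4 libraries, both treated libraries lay nearer 4U than 2U. Over all genes past 2-fold the same held for 641 of 1302 higher and 299 of 552 lower genes, while both treated libraries lay nearer 2U for 374 and 164.

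The treated pair gives the same interval in other cultures with no library in common. Of 5382 genes with a ratio of 4T over 2T, 304 (5.65%) were higher and 311 (5.78%) lower at 4 h. Over 4982 genes with both ratios, Pearson's r between 4U over 2U and 4T over 2T was -0.09 and Spearman's rho -0.10, a description across genes, which are not independent replicates. In the treated pair 0 of 25 heat shock members were higher and 0 lower, and the reference list had 0 of 41 past 2-fold in either direction. Over the members with a ratio in both pairs, the medians of the 2 pairs were on opposite sides of 0 for 9 of 20 lists. The same held without regard to lists. Over the 4075 genes at 1 FPKM or more in all 4 libraries the median was 0.08 untreated and -0.10 treated. They were at least 0.5 apart in the other early transcription factors (-0.02 untreated and 0.62 treated, 9 members), the secreted early list (-0.33 and 0.28), ribosomal proteins (-0.35 and 0.19), the actin list (0.50 and -0.09) and mitochondrial chaperones (0.51 and -0.19). Over all 15 other early transcription factors with an untreated ratio the untreated median was 0.52, on the treated side of 0. EGR1, EGR4, KLF2 and MAFF, all higher in 4U, had no treated ratio. The count of lists on opposite sides moves with the processing of the untreated pair. Under the 4 scalings and GC centring, 6 of the 9 lists stayed on opposite sides throughout, the reference, p53 and glycolytic lists did not, and 6 other lists came to opposite sides under at least 1 of them. The trend with GC content also had opposite signs in the 2 pairs, as given above, and its part in these differences was not tested.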

How the data were processed

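Poly(A) RNA of 4 SK-HEP-1 cultures was made into PCR-amplified libraries and sequenced on SOLiD 3. The authors deposited 1 table of FPKM values, made against hg19 (GRCh37) with TopHat and Cufflinks per the labels (no versions given). FPKM hides the reads behind each gene. The read totals per library that the study gives were not used, and no counting interval was computed. The table's marks (HKG and others) beside the values were used only to define 1 added list.

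Log2 ratios of 4U over 2U were computed without a pseudocount for genes at 1 FPKM or more in either library and above 0 in both (Python 3.11.15, pandas 2.3.3), and the steps were tested on simulated data. With 1 library per condition there was no test: a call is a 2-fold difference. Members and gene lists were chosen with earlier results of these data known. Named by rule were all early transcription factors with a ratio, up to 6 members with the largest differences in each other early or stress list at 5 FPKM or more in 1 library, the 4 largest differences each way among reference genes and the 2 largest in each other housekeeping list, and the 10 largest each way over all genes, small noncoding RNAs apart. Other genes were named as well known members after their values were seen. Transcript GC content and gene positions came from GENCODE 44 on GRCh37, and promoters from RefSeq. Scalings, pseudocounts, minimum levels and a 3-fold limit were tried as alternatives, and centring by GC content was added after the data were seen. The small RNA libraries were not used here. A few genes that the rules name are not reported here by name, though the counts and medians include them.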

Additional observations from a re-analysis of the deposited data

Results flagged for a closer look

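Results were singled out where the untreated and the treated pair went opposite ways between 2 h and 4 h, for lists by at least 0.5 in median log2 ratio and for genes past 2-fold in both. The medians over the 4075 genes at 1 FPKM or more in all 4 libraries also had opposite signs, 0.08 untreated and -0.10 treated. With 1 library per condition the difference between the pairs was not tested.

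For lists, over the members with a ratio in both pairs, the median log2 ratio of 4T over 2T minus that of 4U over 2U was 0.64 for other early transcription factors, 0.61 for secreted and surface early genes and 0.53 for cytosolic ribosomal proteins, which had the lower median in the untreated pair. The first of these rests on 9 shared members. Over all 15 members with an untreated ratio the untreated median was 0.52, on the same side of 0 as the treated 0.62. EGR1, EGR4, KLF2 and MAFF, all higher in 4U, had no treated ratio. It was -0.59 for SRF and actin cytoskeleton targets and -0.70 for mitochondrial chaperones and proteases, which had the higher median there.

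For named genes past 2-fold in both pairs in opposite directions, the same difference was 14.60 for RPL21, 5.91 for TAF10, 2.85 for NDUFC1 and 2.40 for SRSF9, which were lower at 4 h in the untreated pair. It was -7.41 for MGAT4B, -5.56 for SPNS1, -4.94 for KIFC3 and -3.85 for SLC7A5, which were higher at 4 h in the untreated pair.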

How the results depend on the processing

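No paired analysis was possible because each condition had 1 library, and for the same reason no library could be left out. The study gives read totals for each mRNA library, but the number of reads behind each gene's value is unknown. Of 546 list counts recomputed under the alternatives, 111 moved. Of 252 list medians recomputed under the alternatives, 2 moved, each just past the 95% interval of the list's median, which treats members as independent. Under median centring, which lowers every log2 ratio by 0.19, the median of cytosolic ribosomal proteins was -0.54 and that of respiratory chain and ATP synthase subunits -0.33. The other 3 scalings lowered ratios by 0.05 to 0.08. Each scaling shifts a list and all genes by the same amount. A list whose median changes sign thus keeps its place relative to the median of all genes. Of 1562 values of 137 named genes, 54 moved by more than 1.5 times and none that was past 2-fold changed direction, but calls were lost. Of 95 named genes past 2-fold with a GC value, 12 were within 2-fold after centring within GC bins with the median of all genes added back. Of 166 list members past 2-fold, marker lists included, 14 were within 2-fold under 1 or more of the 4 scalings and 6 under all 4. Calls were also gained, all of them lower, with DNAJB11, PHGDH, RPL11, SNAI2, SPRED2 and VIM past 2-fold under all 4.

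The count of genes at least 2-fold higher, 1382, became 914 with a pseudocount of 1, 3112 with no minimum level, 730 with at least 1 FPKM in both, 608 with at least 5 FPKM in either, 266 with at least 20 FPKM in either, 731 at 3-fold and 918 after centring within GC bins. The count at least 2-fold lower, 603, became 353 with at least 5 FPKM in either, 197 with at least 20 FPKM in either and 198 at 3-fold. Minimum levels test fewer genes, as does GC centring, which covers 5021 genes (1189 higher before it) and, without the median added back, also sets the median of each bin to 0. The median over all genes, 0.19, became 0 under median centring and under centring within GC bins, which set it there, 0.14 for the FPKM total without small noncoding RNAs, 0.11 for the upper quartile and 0.11 for the trimmed mean of ratios. It became 0.50 with no minimum level, 0.062 with at least 1 FPKM in both, 0.058 with at least 5 FPKM in either and -0.038 with at least 20 FPKM in either.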
